A study of Mus musculus with 16 samples.

Results

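The genes described here are 31 listed genes of glycolysis and the hypoxia response, followed by symbol through bone-marrow-derived dendritic cells of lupus-prone NZM2410 mice. They comprise carriers for glucose and lactate, the enzymes of glycolysis from hexokinase to lactate dehydrogenase, and regulators or targets of hypoxia-inducible factor. All 31 symbols were found among the 24001 gene entries of the expression table, and all 31 passed the filter on low values, which asked for at least 1 FPKM (fragments normalized to transcript length and library size) in at least 2 libraries.

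Dendritic cells were grown from marrow for 7 days with the cytokines GM-CSF (20 ng/ml) and IL-4, the latter at 10 ng/ml, and were then left with vehicle or given loxoribine, a TLR7 agonist, together with CpG at 1 μg/ml, a TLR9 agonist, for 24 h. For loxoribine the labels give 200 μmol/ml; nothing else in the files checks that unit. The study had 4 arms, each with 2 vehicle and 2 agonist libraries, which makes 16 libraries in 8 groups. The study asked how estrogen receptor alpha (encoded by Esr1) bears on these cells, and its design text speaks of CD11c-high cells.

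The WT arm carries the wild-type receptor and had no surgery. The KO arm, sourced as ERKO Shrt, had none either. In the ERKO OVX arm, sourced as ERKO Shrt OVX, and in the Ex3a OVX arm, sourced as ERKO NULL OVX, the mice were ovariectomized at 4 to 8 weeks of age and carried a 0.25 mg, 90-day estradiol pellet. The allele labels do not follow these names: vehicle libraries of KO and ERKO OVX are labelled Esr1(tm4.2Ksk) and described as lacking estrogen responses, while agonist libraries of both arms, and all 4 Ex3a OVX libraries, are labelled Esr1(tm1Ksk) and described as expressing a short receptor. Arms are therefore called by their source names, and in KO and ERKO OVX the allele label changes together with the treatment, so the 2 cannot be told apart from the labels. No promoter or Cre line is given in the labels, although the series title speaks of a conditional knockout, so which cells lost the receptor cannot be read from them. Whether the libraries of a pair stem from different mice or cultures is not in the labels, so p-values measure the spread between libraries alone, which may be technical.

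As background, glycolysis splits glucose into pyruvate, and lactate dehydrogenase turns pyruvate into lactate that leaves the cell through monocarboxylate carriers. Hypoxia-inducible factor is a transcription factor whose alpha subunit, encoded by Hif1a, is hydroxylated and destroyed when oxygen is plentiful. Under low oxygen, or after inflammatory signals in myeloid cells, it accumulates and raises many glycolytic genes as well as its own hydroxylases. Dendritic cells are known to raise glucose use soon after Toll-like receptor ligation.

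The libraries stood apart by surgery in ways that bear on all values below. Sums of FPKM were 481738 to 522287 in the 8 unoperated libraries and 612322 to 696321 in the 8 ovariectomized ones, and the fragments per library, estimated from the steps between low values, were 36.8 M to 43.6 M and 17.7 M to 23.6 M (M, mega). The 2 libraries of each ovariectomized pair differed by about the sampling noise (variance ratio 0.854 to 1.64, against 3.31 to 10.2 in unoperated pairs) and were counted as 1 sample each, so the spread used in every test came from the unoperated groups. Esr1 was low throughout, at 0.684 to 1.38 FPKM in WT, 1.77 to 2.57 in KO, 0.982 to 1.16 in ERKO OVX and 0.283 to 0.364 in Ex3a OVX. A level summed over the whole gene does not show whether the altered exon is present, so it does not check the allele labels. All 9 markers of dendritic cells were detected, but not evenly. Itgax, which encodes CD11c, ran from 86.0 to 155 FPKM. The MHC class II gene H2-Ab1 averaged 213 to 297 FPKM in unoperated groups and 1196 to 1942 in ovariectomized ones. Zbtb46, a factor of conventional dendritic cells, averaged 13.4 to 26.8 and 2.76 to 4.42 in the same order, and Ccr7, the homing receptor of mature cells, 1122 to 2177 and 207 to 505. Dpp4 averaged below 1 FPKM in each ovariectomized group. Of 9 macrophage markers 8 were in the table, and they summed to 821 to 1527 FPKM in unoperated libraries and 1890 to 2768 in ovariectomized ones. Of 9 neutrophil and granulocyte precursor markers, 8 were in the table. They summed to 50.3 to 119 FPKM in unoperated libraries, 1140 to 1292 in ERKO OVX and 283 to 298 in Ex3a OVX. S100a8 and S100a9 held most of that sum, Elane was at 0 in the WT agonist and KO groups, and Retnlg was at 0 in every ovariectomized library. Mast cell and basophil markers summed to 0.453 to 1.36, 59.3 to 79.8 and 17.8 to 26.9 FPKM in the same order, and T, B and NK cell markers to 0.334 to 0.928, 5.48 to 9.20 and 22.0 to 35.7. Erythroid markers never summed above 1.26 FPKM. In such bulk libraries, fewer cells of a type and less RNA per cell cannot be told apart.

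Lower glycolysis and aldolase were the most abundant of the 31 genes. Aldoa, which splits the sugar bisphosphate, ranged from 769 to 1519 FPKM over the 16 libraries, Gapdh from 784 to 1388, Pkm (pyruvate kinase) from 490 to 1240, Ldha (lactate dehydrogenase) from 330.0 to 895 and Eno1 (enolase) from 321 to 838. At the other end stood the glucose carrier gene Slc2a3, at 0.838 to 1.52 FPKM, and P4ha2, a collagen prolyl hydroxylase subunit, at 0.408 to 1.75. FPKM is scaled by gene length, so these levels may be set side by side. All 31 genes together held 1.15% to 1.17% of summed FPKM in WT vehicle, 0.967% to 0.977% in WT agonist, 0.936% to 0.948% in KO vehicle and 0.813% to 0.832% in KO agonist. In ERKO OVX the share was 1.22% with vehicle and 1.06% with agonists, and in Ex3a OVX it was 0.738% with vehicle and 0.707% to 0.711% with agonists. By group mean, 17 of the 31 genes were highest in ERKO OVX vehicle and 12 were lowest in KO agonist, as the map of all members by library shows. The same count was not made over all genes, so these numbers do not set the 31 genes apart.

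**Figure D1:**
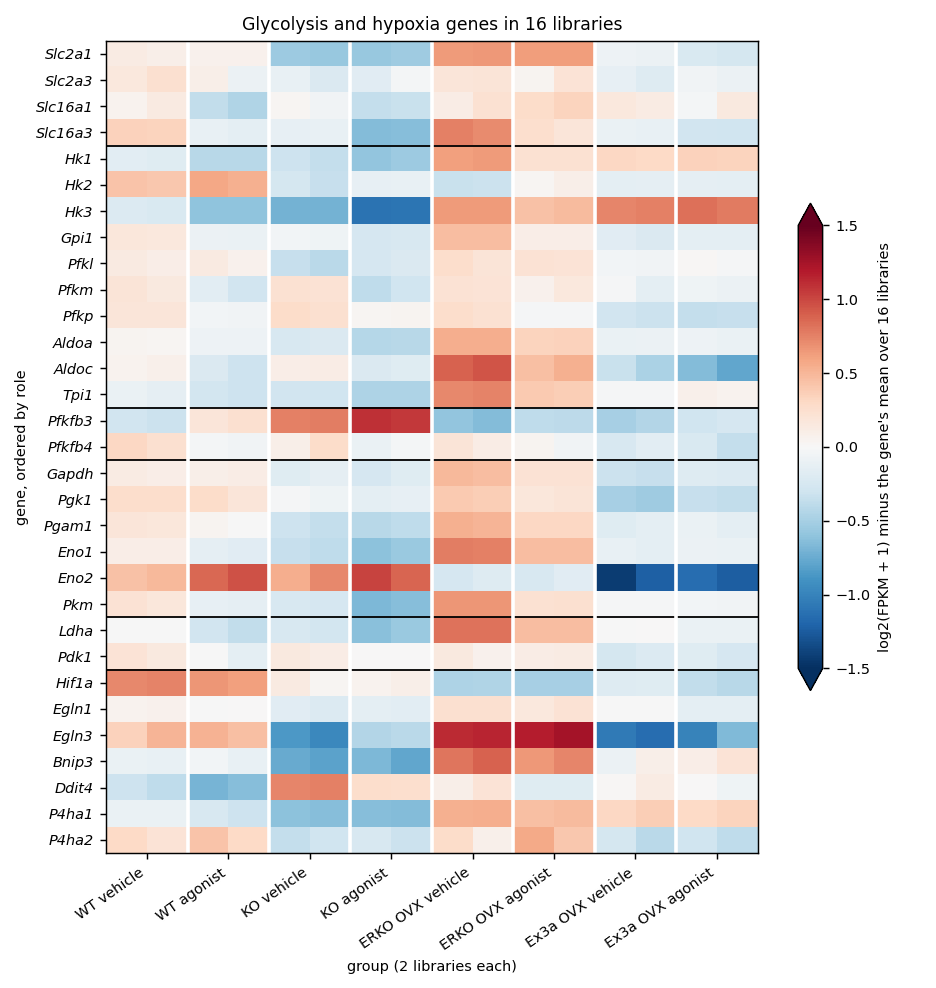
Each cell is a library's log2(FPKM + 1) minus the gene's mean over 16 libraries, with genes in rows ordered by role (carriers, upper glycolysis, its fructose bisphosphate regulators, lower glycolysis, pyruvate fate, hypoxia genes) and 2 libraries per group in columns. Most rows are reddest in ERKO OVX vehicle, where 17 of 31 genes peak, while Pfkfb3 and Eno2 are reddest in KO agonist and Hif1a in WT vehicle. Peaks were not counted over all genes.

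Isozymes of a step did not keep the same proportions in all groups. Among hexokinases, which trap glucose in the cell, Hk3 supplied 46.0% to 53.4% of summed hexokinase FPKM in unoperated libraries and 62.9% to 68.6% in ovariectomized ones. Hk2, the inducible form, supplied 17.0% to 27.9% and 8.08% to 12.3% in the same order, so the 2 sets of libraries did not overlap for either isozyme. Pfkfb3 made up 69.4% to 90.3% of the Pfkfb3 and Pfkfb4 sum, with the highest shares in KO agonist. Egln3 made up 46.6% to 49.6% of the Egln1 and Egln3 sum in ERKO OVX, 36.0% to 40.3% in WT, 18.6% to 26.5% in KO and 14.3% to 22.3% in Ex3a OVX. Among phosphofructokinase genes Pfkm, the muscle form, never exceeded 7.19%, and Pfkl and Pfkp shared the rest.

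**Figure D2:**
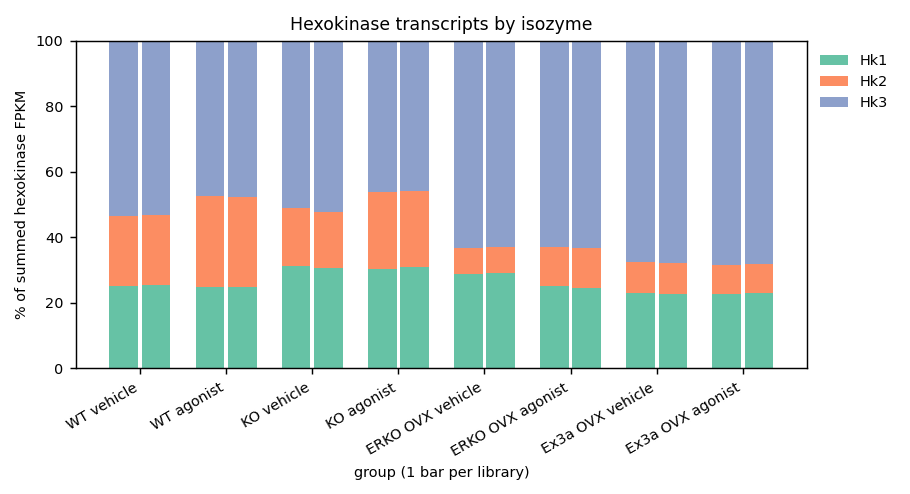
Bars give the percent of summed hexokinase FPKM from Hk1, Hk2 and Hk3, 1 bar per library and 2 per group. The Hk3 part covers 46.0% to 53.4% of each unoperated bar and 62.9% to 68.6% of each ovariectomized bar.

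Promoter sequence was read because many of these genes are known targets of one factor. Hypoxia-inducible factor binds the core ACGTG and also GCGTG. In the 250 bases before each start in RefSeq (GRCm38.p6), 30 of the 31 genes matched, with 43 starts. ACGTG on either strand was present in 22 of the 43 windows (51.2%), against 16.6% of all 32851 windows. GCGTG was present in 23 (53.5%), against 28.2%, and either core in 35 (81.4%), against 38.6%. The promoter of Slc2a3 is named only. A match describes letters in a window, not a bound site.

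Windows of 4 genes are shown, for the genes with the strongest WT response to agonists in each direction (Pfkfb3 and Slc16a1) and with the widest difference between KO and WT vehicle cells in each direction (Egln3 and Ddit4). Capitals mark these cores on either strand. Each run ends at the RefSeq start or, where that comes first, where an annotated exon begins. They lie at chr2:11502102-11502340 (minus strand, the downstream of 2 Pfkfb3 starts), chr3:104638414-104638663 (plus strand), chr12:54203875-54204124 (minus strand) and chr10:59951835-59952020 (minus strand).
Pfkfb3: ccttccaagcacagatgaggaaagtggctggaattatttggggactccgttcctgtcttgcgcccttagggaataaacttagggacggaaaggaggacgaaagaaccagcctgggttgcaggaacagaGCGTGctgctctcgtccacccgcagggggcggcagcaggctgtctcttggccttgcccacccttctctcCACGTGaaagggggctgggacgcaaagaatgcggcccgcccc
Slc16a1: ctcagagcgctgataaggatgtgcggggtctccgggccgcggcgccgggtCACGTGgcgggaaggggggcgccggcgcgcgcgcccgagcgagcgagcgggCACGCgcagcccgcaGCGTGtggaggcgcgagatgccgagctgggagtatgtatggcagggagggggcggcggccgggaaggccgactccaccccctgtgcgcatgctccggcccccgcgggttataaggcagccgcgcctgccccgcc
Egln3: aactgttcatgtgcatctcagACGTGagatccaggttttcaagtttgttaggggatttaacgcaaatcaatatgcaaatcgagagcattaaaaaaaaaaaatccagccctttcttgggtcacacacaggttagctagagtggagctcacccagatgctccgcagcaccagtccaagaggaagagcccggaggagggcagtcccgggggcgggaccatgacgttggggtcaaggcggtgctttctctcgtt
Ddit4: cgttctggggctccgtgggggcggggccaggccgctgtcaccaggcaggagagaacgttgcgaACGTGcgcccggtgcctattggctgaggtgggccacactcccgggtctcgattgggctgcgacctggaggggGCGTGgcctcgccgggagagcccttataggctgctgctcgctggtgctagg
In the Pfkfb3 and Slc16a1 windows the ACGTG core sits within the palindrome CACGTG, which reads the same on both strands, and each GCGTG core lies outside it. By annotation (GENCODE M21, GRCm38) the genes span chr2:11471433-11554077 (Pfkfb3), chr3:104638668-104658462 (Slc16a1), chr12:54178981-54203860 (Egln3) and chr10:59949669-59951834 (Ddit4), so the Pfkfb3 run lies inside the gene, upstream of a shorter transcript.

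After 24 h of agonists, WT cells carried less mRNA for most steps of glycolysis. Of the 31 genes, 20 fell and 3 rose (limma on log2(FPKM + 1), Benjamini-Hochberg adjusted p under 0.05), where over all 11347 genes tested 27% were lower and 30.8% higher. Their median change was -0.18, against 0.02 over all genes. Changes are given on the log2(FPKM + 1) scale with their standard error, which understates the change of weakly expressed genes.

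Lactate carriers were among the genes that fell most in WT. Slc16a3, the carrier known for lactate export, went from 134 and 133 FPKM with vehicle to 97.6 and 95.5 with agonists, and Slc16a1 from 3.47 and 3.73 to 2.35 and 2.17. No agonist library reached a vehicle library for either gene. Genes are named here and below for large changes in these same libraries, so separate pairs add no support. The changes of Slc16a3 and Slc16a1 were -0.46 ± 0.02 (SE, adjusted p = 8.44e-08) and -0.50 ± 0.05 (SE, adjusted p = 2.92e-05). Upper glycolysis followed: Hk3 went from 73.1 and 71.7 to 55.1 and 55.0 FPKM, a change of -0.39 ± 0.02 (SE, adjusted p = 3.34e-07). Pfkm changed by -0.39 ± 0.05 (SE, adjusted p = 1.94e-04) and Aldoc by -0.33 ± 0.04 (SE, adjusted p = 3.13e-05). Hk1, Gpi1, Pfkp, Aldoa and Tpi1 fell by less, between -0.26 for Gpi1 and -0.11 for Aldoa. Of lower glycolysis and pyruvate fate, Pkm (-0.32), Ldha (-0.32), Eno1 (-0.25), Pdk1 (-0.25) and Pgam1 (-0.16) fell. Gapdh and Pgk1 differed by -0.01 and -0.03 and did not pass.

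The regulators of phosphofructokinase moved in opposite directions in WT. Pfkfb3, which makes the sugar bisphosphate that activates phosphofructokinase, stood at 35.04 and 34.3 FPKM with vehicle and 49.1 and 50.9 with agonists, a rise of 0.52 ± 0.03 (SE, adjusted p = 1.96e-07). Its relative Pfkfb4 fell by 0.31 on the log2 scale. Eno2, the enolase known from neurons, rose from 9.005 and 9.38 to 12.4 and 13.3 FPKM (0.44 ± 0.07 (SE, adjusted p = 2.78e-04)), and Hk2 from 29.2 and 28.7 to 32.5 and 31.4 (0.14 ± 0.03 (SE, adjusted p = 0.00608)). The Hk2 call was lost with libraries scaled to an equal sum (0.05, adjusted p = 0.271). Among hypoxia genes, Ddit4, an inhibitor of the mTOR kinase complex, fell from 13.9 and 13.2 to 10.4 and 10.9 FPKM (-0.32 ± 0.04 (SE, adjusted p = 3.08e-05)), and P4ha1 changed by -0.17. Hif1a changed by -0.09 and Slc2a3 by -0.20, but leaving out any 1 of the 4 WT libraries ended the Hif1a call (adjusted p = 0.0529 to 0.214), and leaving out WT vehicle 1, WT vehicle 2, WT agonist 2, KO vehicle 1 or KO vehicle 2 ended that for Slc2a3 (0.0552 to 0.302). Egln1, Egln3, Bnip3, P4ha2, Slc2a1 and Pfkl did not pass.

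In KO cells 16 of the 31 genes fell and 5 rose, against 25.3% and 25.9% of the 11346 genes tested, and the median was -0.12, against 0.01 over all genes. Pfkm went from 5.19 and 5.13 to 3.05 and 3.31 FPKM (-0.56 ± 0.05 (SE, adjusted p = 1.79e-05)). Slc16a3 went from 96.7 and 97.3 to 67.1 and 67.6 (-0.52 ± 0.02 (SE, adjusted p = 5.55e-08)), and Ddit4 from 29.6 and 30.2 to 21.1 and 21.0 (-0.49 ± 0.04 (SE, adjusted p = 2.03e-06)). In each of these 3 genes the pairs did not overlap. Pkm changed by -0.41, Hk3 by -0.39, Ldha by -0.33 and Slc16a1 by -0.33. Egln3, an oxygen-sensing prolyl hydroxylase that marks the alpha subunit for destruction, rose from 3.32 and 3.03 to 4.81 and 4.93 FPKM (0.49 ± 0.06 (SE, adjusted p = 8.19e-05)). Pfkfb3 rose from 73.2 and 74.1 to 93.0 and 91.0 (0.32), and Eno2 (0.31), Hk2 (0.19) and Pfkl (0.14) rose too. The Pfkl call ended without KO vehicle 2 (adjusted p = 0.0622), and the small fall of Pgk1 (-0.09) ended without KO vehicle 1, either KO agonist library or either WT vehicle library (adjusted p = 0.0548 to 0.201).

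In ERKO OVX, 15 genes fell and 3 rose, against 19.2% and 18.3% of all genes, with a median of -0.155 against 0.004. Slc16a3 went from 179 and 173 to 125 and 120.2 FPKM (-0.52 ± 0.03 (SE, adjusted p = 6.47e-06)). Pkm went from 1236 and 1240.5 to 919 and 923 (-0.43 ± 0.03 (SE, adjusted p = 1.75e-05)), and Ldha from 895 and 895 to 704 and 699 (-0.35 ± 0.04 (SE, adjusted p = 3.38e-04)). The pairs did not overlap, although within this arm a pair varies by about the sampling noise alone. Aldoc changed by -0.42, Hk1 by -0.40, Gpi1 by -0.37 and Tpi1 by -0.35. Gapdh, Pgk1 and Pgam1 fell here by 0.26, 0.20 and 0.22, and with quantile normalization Gapdh, Pgk1 and Aldoa no longer passed (adjusted p = 0.289, 0.0761 and 0.107). Hk2 rose from 16.8 and 17.0 to 21.9 and 22.8 FPKM (0.38 ± 0.05 (SE, adjusted p = 3.13e-04)), and Pfkfb3 from 28.2 and 27.2 to 32.9 and 32.7 (0.24). P4ha2 also rose (0.31), a call that ended without ERKO OVX agonist 1 (adjusted p = 0.0831) or ERKO OVX vehicle 2 (0.102).

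In Ex3a OVX cells, 5 of these genes fell (16.1%) and 4 rose (12.9%). These shares lie near or below the 18.2% and 19.1% of all genes, and the median was 0.003 against 0.008. With libraries scaled to an equal sum the split was 10 lower and 1 higher, and with quantile normalization 7 and 2. Over all 11347 genes, 2931 were lower and 1229 higher with an equal sum, and 1885 and 1710 with quantile normalization. Slc16a3 went from 98.1 and 97.6 to 86.4 and 85.9 FPKM (-0.18 ± 0.03 (SE, adjusted p = 0.00165)), Aldoc from 18.2 and 16.5 to 14.5 and 13.1 (-0.31 ± 0.05 (SE, adjusted p = 0.00124)), and Hif1a from 63.6 and 64.2 to 56.2 and 54.6 (-0.20 ± 0.05 (SE, adjusted p = 0.00977)). Slc2a1, the main glucose importer here, changed by -0.17 and Egln1 by -0.14. Pfkfb3 rose from 30.3 and 31.5 to 34.8 and 35.9 FPKM (0.19). Pgk1 (0.16) and Gapdh (0.13) rose as deposited, and neither passed with an equal sum (0.08 and 0.06, adjusted p = 0.182 and 0.256). The rise of Egln3 (0.28) rested on Ex3a OVX agonist 2: without it the change was 0.10 (adjusted p = 0.38), and without Ex3a OVX vehicle 2 the adjusted p was 0.051.

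The arms share no library in these 4 comparisons, but every test takes its spread from the WT and KO libraries. Across arms, 12 genes fell in WT, KO and ERKO OVX alike: Slc16a3, Hk1, Hk3, Gpi1, Pfkp, Aldoa, Aldoc, Tpi1, Eno1, Pkm, Ldha and Ddit4. Over all genes tested, 10.5% fell in these 3 arms alike. Of the 12 genes, Slc16a3 and Aldoc fell in Ex3a OVX as well, which is 6.45% of the 31 against 5.25% of all genes. Pfkfb3 rose in all 4 arms, which is 3.23% of the 31 against 4.64% of all genes. Hk2 rose in WT, KO and ERKO OVX. With Pfkfb3 that makes 2 genes higher in these 3 arms, 6.45% of the 31 against 10.2% of all genes. The summed markers of cycling cells were lower with agonists in each arm, mostly through Pcna (122 to 86.6 FPKM by mean in WT), while Mki67 was higher with agonists in each (17.5 to 27.2 in WT). The sum was 173 to 178 FPKM with vehicle and 137 to 143 with agonists for WT cells. The KO sums were 207 to 210.5 and 158 to 165, the ERKO OVX sums 288 to 289 and 225 to 228, and the Ex3a OVX sums 275 and 217 to 219. All 6 of these markers were above 1 FPKM in every library. Macrophage markers summed higher with agonists in each arm, at 1338 to 1365 and 1498 to 1527 FPKM in WT. The part of these cells in the changes was not tested.

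**Figure D3:**
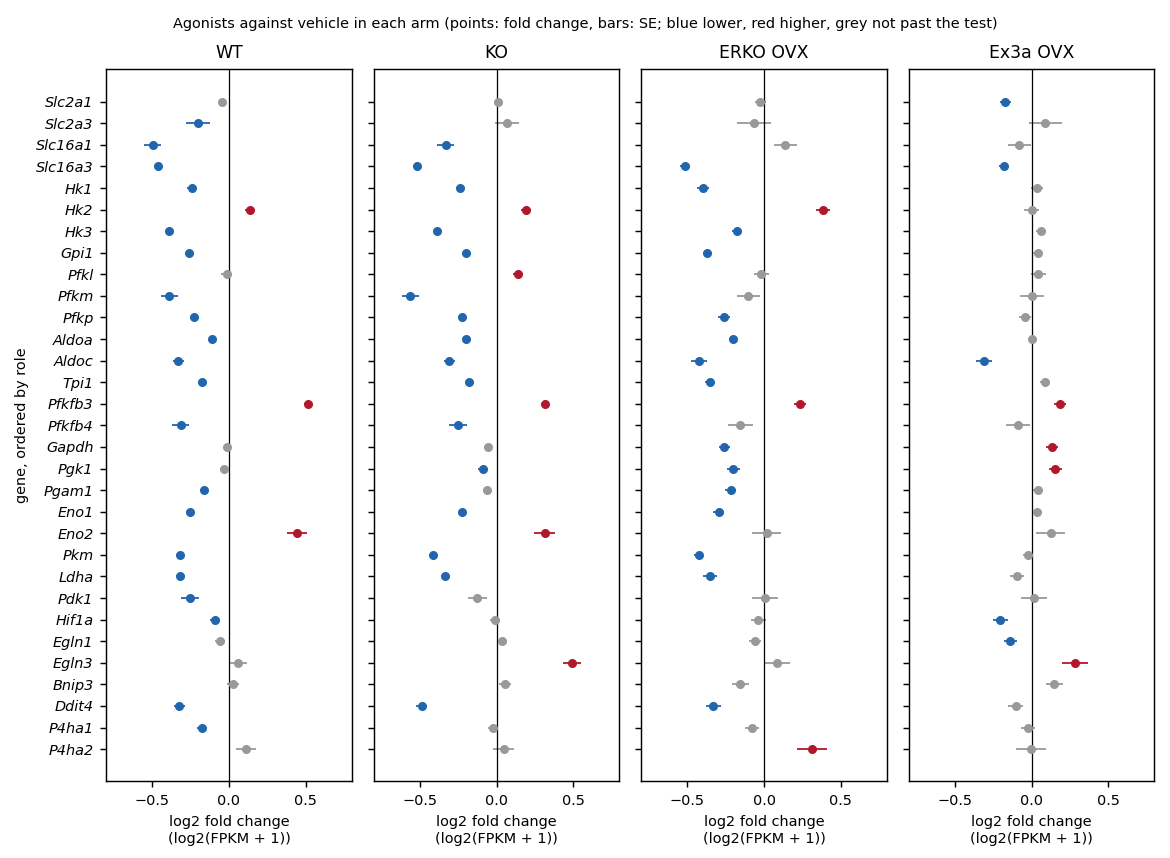
Points give the change with agonists in log2(FPKM + 1) and bars its standard error, 1 panel per arm and 1 line per gene, with genes past adjusted p 0.05 in blue (lower) or red (higher). Points lie mostly left of 0 in WT (20 lower), KO (16) and ERKO OVX (15) and close to 0 in Ex3a OVX (5), while Pfkfb3 lies to the right in all 4 panels.

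Whether the response differed between arms was tested directly. Between KO and WT, 2 of the 31 genes differed (1 higher, 1 lower, against 2.3% and 4.65% of all genes). Egln3 changed by 0.06 in WT and 0.49 in KO, a difference of 0.43 ± 0.08 (SE, adjusted p = 0.0151), and Pfkfb3 rose by 0.52 and 0.32, a difference of -0.20 ± 0.04 (SE, adjusted p = 0.0157). Both calls were close to the threshold. Leaving out KO vehicle 2 or WT agonist 2 ended that for Egln3 (adjusted p = 0.0599 and 0.0574), and leaving out KO vehicle 2, KO agonist 2, WT vehicle 2 or WT agonist 2 ended that for Pfkfb3 (0.0518 to 0.0712). With an equal sum 7 genes were higher and 0 lower, and with quantile normalization 4 and 1. Over all 11346 genes, 850 were higher and 286 lower with an equal sum, and 360 and 433 with quantile normalization.

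Between Ex3a OVX and ERKO OVX, 15 genes had a higher and 2 a lower response in Ex3a OVX, against 16.6% and 14.7% of all genes, and the median difference was 0.20 against 0.002. This split depended on scaling: it was 8 and 6 with an equal sum, which moves the median of all genes by -0.12, and 4 and 2 with quantile normalization. Over all 11347 genes, 734 were higher and 3303 lower with an equal sum, and 1152 and 1348 with quantile normalization. As deposited, the widest differences were in Tpi1 (0.44 ± 0.04 (SE, adjusted p = 1.90e-04)), Hk1 (0.43 ± 0.06 (SE, adjusted p = 6.52e-04)), Gpi1 (0.41 ± 0.04 (SE, adjusted p = 2.08e-04)) and Pkm (0.40 ± 0.04 (SE, adjusted p = 2.71e-04)). Gapdh differed by 0.39, Pgk1 by 0.36, Slc16a3 by 0.33 and Eno1 by 0.33. Hk2 (-0.38 ± 0.07 (SE, adjusted p = 0.00282)) went the other way, since it rose in ERKO OVX and stood at 19.3 and 19.5 FPKM with vehicle and 19.5 and 19.3 with agonists in Ex3a OVX. Slc2a1 (-0.15) was the other gene with a lower response. Its call, like those for Bnip3 (0.30) and Ddit4 (0.23), ended without single libraries (adjusted p = 0.053 to 0.0981). With quantile normalization Pkm, Gapdh, Slc16a3 and Eno1 did not pass (adjusted p = 0.329, 0.275, 0.0718 and 0.147).

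Between ERKO OVX and KO, 10 genes differed in response (4 higher, 6 lower, against 11.4% and 12.4% of all genes). The split was 5 and 1 with an equal sum and 6 and 1 with quantile normalization. Over all 11346 genes, 2430 were higher and 781 lower with an equal sum, and 1258 and 997 with quantile normalization. Slc16a1 fell in KO and went from 3.68 and 4.04 to 4.24 and 4.46 FPKM in ERKO OVX, a difference of 0.47 ± 0.09 (SE, adjusted p = 0.00631). Pfkm differed by 0.46 ± 0.10 (SE, adjusted p = 0.00774), Egln3 by -0.41 ± 0.10 (SE, adjusted p = 0.0196) and Hk3 by 0.21 ± 0.04 (SE, adjusted p = 0.00443). Gpi1 (-0.17), Gapdh (-0.20) and Tpi1 (-0.18) were lower as deposited. None of these passed with an equal sum (adjusted p = 0.159, 0.0919 and 0.134), and with quantile normalization Gpi1 did not pass (0.239) while Gapdh and Tpi1 changed sign. Hk1 (-0.16), Hk2 (0.19), Pgam1 (-0.15) and Egln3 lost their calls without single libraries (adjusted p = 0.0535 to 0.0947), and Hk1 and Pgam1 also with an equal sum (0.347 and 0.35) or quantile normalization (0.526 and 0.634).

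Vehicle cells of the KO arm held less of most of these mRNAs than WT cells. Of the 31 genes 22 were lower and 4 higher, against 28.7% and 31.5% of all genes tested, with a median of -0.27 against 0.01. Egln3 stood at 8.99 and 10.2 FPKM in WT and 3.32 and 3.03 in KO (-1.34 ± 0.06 (SE, adjusted p = 6.42e-08)). Bnip3, a receptor for removing mitochondria, stood at 15.8 and 15.6 and 9.63 and 9.30 (-0.68 ± 0.04 (SE, adjusted p = 4.34e-07)), and Slc2a1 at 85.5 and 83.6 and 53.2 and 52.3 (-0.67 ± 0.02 (SE, adjusted p = 1.60e-08)). These hypoxia targets and the glucose importer were lower in both KO libraries than in either WT library. Hif1a itself stood at 120.5 and 123 FPKM in WT and 80.1 and 74.7 in KO (-0.65 ± 0.03 (SE, adjusted p = 2.12e-07)). Hk2 stood at 29.2 and 28.7 and 17.6 and 16.7 (-0.72 ± 0.03 (SE, adjusted p = 9.13e-08)), and P4ha2 differed by -0.58. In lower glycolysis Pgam1 (-0.51), Eno1 (-0.47), Pkm (-0.44), Pgk1 (-0.30) and Gapdh (-0.27) were all lower.

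A pair of genes went strongly the other way in KO vehicle cells. Ddit4 stood at 13.9 and 13.2 FPKM in WT and 29.6 and 30.2 in KO (1.09 ± 0.04 (SE, adjusted p = 8.27e-09)), and Pfkfb3 at 35.04 and 34.3 and 73.2 and 74.1 (1.07 ± 0.03 (SE, adjusted p = 1.85e-09)). In both genes every KO library was higher than every WT library. Eno2 (0.17) and Pfkp (0.08) were higher by little, and each call ended without single libraries (adjusted p = 0.0525 to 0.355 and 0.0796 to 0.144).

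With agonists, 21 genes were lower and 3 higher in KO than in WT, against 27.6% and 27.2% of all genes, and the median was -0.31 against -0.003. Ddit4 stood at 10.4 and 10.9 FPKM in WT and 21.1 and 21.0 in KO (0.92 ± 0.04 (SE, adjusted p = 2.55e-08)), Pfkfb3 at 49.1 and 50.9 and 93.0 and 91.0 (0.87 ± 0.03 (SE, adjusted p = 7.92e-09)), and Egln3 at 10.3 and 9.75 and 4.81 and 4.93 (-0.91 ± 0.06 (SE, adjusted p = 1.04e-06)). Hk2 (-0.67), Bnip3 (-0.65), P4ha2 (-0.64), Slc2a1 (-0.61), Hif1a (-0.57), Pkm (-0.53) and Slc16a3 (-0.51) were lower. Pfkp (0.08) was the third gene that was higher, and its call ended without single libraries (adjusted p = 0.0603 to 0.111). Ddit4, Pfkfb3 and Egln3 differed between KO and WT in the same direction with vehicle and with agonists. These genes were named for large differences, and marrow for both treatments may come from the same mice. The labels leave that open, so this repeat adds no separate support. Macrophage markers moved between these arms too: 8 of 8 were above 1 FPKM in both, their sum was 1338 to 1365 in WT vehicle and 821 to 828 in KO vehicle, and the complement gene C1qa averaged 113 and 3.27 FPKM. Their part in the difference was not tested.

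**Figure D4:**
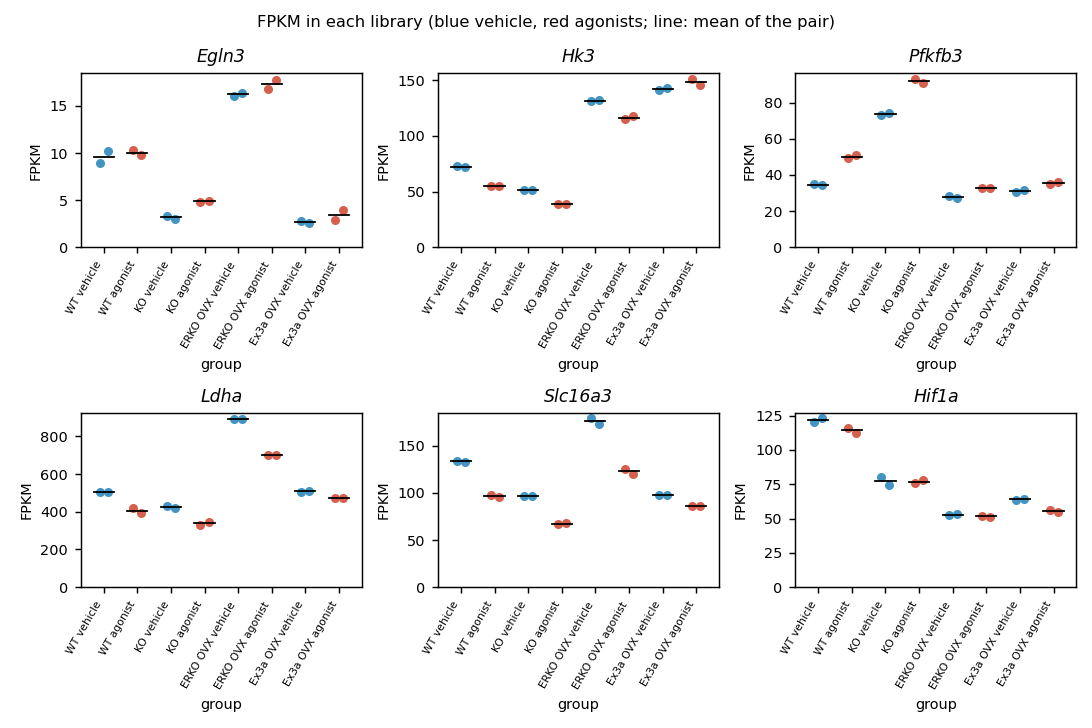
Points are the FPKM of single libraries for 6 genes, blue with vehicle and red with agonists, and lines are pair means, with the y axis of each panel starting at 0. Egln3 is highest in ERKO OVX and lowest in Ex3a OVX vehicle, Pfkfb3 is highest in KO agonist, and Hif1a is highest in WT, at 113 to 123 FPKM.

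Between the 2 ovariectomized arms, Ex3a OVX held less of most of these mRNAs. With vehicle 25 genes were lower and 4 higher than in ERKO OVX, against 26% and 29.2% of all genes, with a median of -0.55 against 0.02. Egln3 stood at 16.1 and 16.4 FPKM in ERKO OVX, while Ex3a OVX had 2.78 and 2.56 (-2.23 ± 0.08 (SE, adjusted p = 2.24e-08)). Aldoc stood at 43.8 and 45.6 and 18.2 and 16.5 (-1.32 ± 0.05 (SE, adjusted p = 2.48e-08)), and Eno2 at 5.22 and 5.50 and 1.77 and 2.17 (-1.10 ± 0.09 (SE, adjusted p = 5.91e-06)). The arms did not overlap in these 3 genes, with each pair again counting as 1 sample. The abundant enzymes followed, with Eno1 at 838 and 833 and 457 and 445 FPKM (-0.89 ± 0.03 (SE, adjusted p = 2.74e-08)), Ldha at 895 and 895 and 507 and 509.6 (-0.81 ± 0.04 (SE, adjusted p = 2.50e-07)) and Pgk1 at 297 and 292 and 159 and 156 (-0.90 ± 0.04 (SE, adjusted p = 1.03e-07)). Bnip3 differed by -0.84 and Slc16a3 by -0.84. Against this direction, Hif1a (0.27), Hk2 (0.19), Pfkfb3 (0.15) and Hk3 (0.11) were higher in Ex3a OVX, and with quantile normalization Pfkfb3 and Hk3 no longer passed (adjusted p = 0.091 and 0.126).

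With agonists 24 genes were lower and 4 higher in Ex3a OVX than in ERKO OVX, against 30.6% and 32.1% of all genes. The median was -0.33 against 0.01. With an equal sum 25 were lower and 1 higher, and with quantile normalization 23 and 1. Over all 11347 genes, 5264 were lower and 2132 higher with an equal sum, and 3535 and 3063 with quantile normalization. Egln3 stood at 16.9 and 17.7 and 2.93 and 3.98 FPKM (-2.04 ± 0.08 (SE, adjusted p = 3.98e-08)), Aldoc at 32.0 and 34.1 and 14.5 and 13.1 (-1.21 ± 0.05 (SE, adjusted p = 4.34e-08)), and Slc2a1 at 121 and 121 and 66.6 and 64.8 (-0.87 ± 0.03 (SE, adjusted p = 2.73e-08)). Eno2 (-0.99), P4ha2 (-0.82), Ldha (-0.56), Eno1 (-0.56) and Bnip3 (-0.54) were lower too. Hk3 was higher in Ex3a OVX, at 151 and 146 against 115 and 118 FPKM (0.35 ± 0.03 (SE, adjusted p = 9.28e-06)). The higher levels of Hk1 (0.11), Ddit4 (0.15) and Pfkfb3 (0.11) changed sign with an equal sum and did not pass there. Leaving out Ex3a OVX agonist 1, Ddit4 and Slc16a1 did not pass (adjusted p = 0.0519 and 0.0802), and Pfkfb3 did not without Ex3a OVX agonist 2 (0.0824) or without any 1 of the KO and WT vehicle libraries (0.051 to 0.0514).

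The arms compared here also differed in markers of other cells. Neutrophil and granulocyte precursor markers summed to 1292 FPKM in ERKO OVX vehicle and 283 to 285 in Ex3a OVX vehicle, with 6 of 8 above 1 FPKM in both, and mast cell and basophil markers to 79.8 and 25.3 to 26.9. Macrophage markers ran the other way, at 1890 to 1917 and 2643 to 2646, and C1qa averaged 2.43 and 116 FPKM. Their part in the difference was not tested.

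The KO and WT comparison shares no library with that of the ovariectomized arms, but both take their spread from the WT and KO libraries. With vehicle, 19 genes were lower in both comparisons, which is 86.4% of the 22 lower in KO and 76% of the 25 lower in Ex3a OVX, and Pfkfb3 was higher in both. With agonists 18 genes were lower in both. Over all genes tested, 7.87% were lower in both comparisons with vehicle and 9.71% with agonists. Higher in both with vehicle were 8.8% of all genes, and of the 31 only Pfkfb3 (3.23%). In vehicle cells Hif1a, Hk2 and Hk3 were lower in KO than in WT and higher in Ex3a OVX than in ERKO OVX, and Eno2 and Pfkp were the reverse. With agonists only Hk3 and Pfkp, of these 5, passed in opposite directions, and Hk2 was lower in both comparisons.

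**Figure D5:**
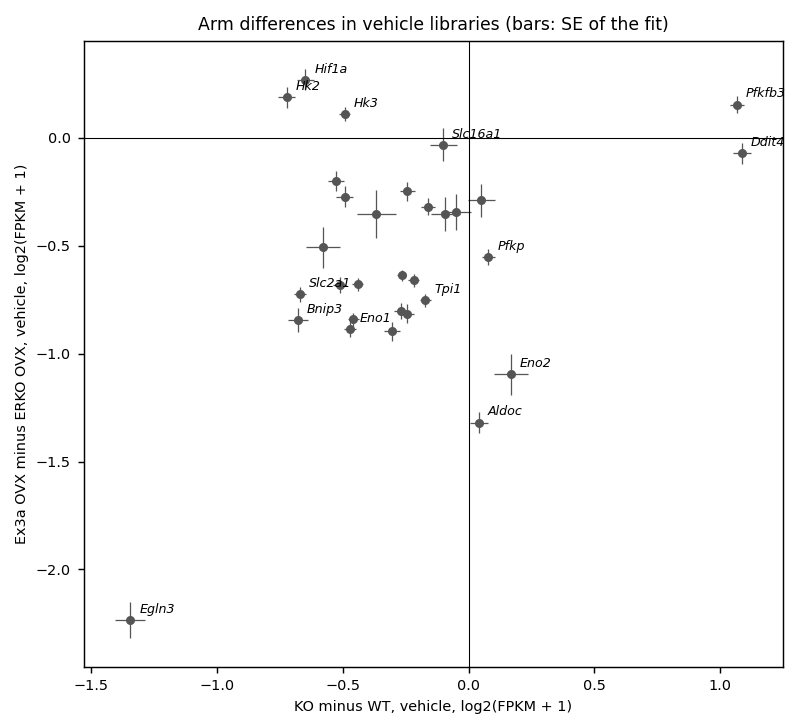
Each point is a gene, with its KO minus WT difference in vehicle cells on the x axis and its Ex3a OVX minus ERKO OVX difference on the y axis, both in log2(FPKM + 1), and bars for standard errors. Egln3 lies far to the lower left (-1.34 and -2.23), Pfkfb3 and Ddit4 to the right near 1.07 and 1.09, and 19 genes are lower in both.

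Most of these mRNAs were higher in ERKO OVX than in the KO arm of the same source genotype. With vehicle 22 were higher and 4 lower, against 40.9% and 39.9% of all genes, and with agonists 23 and 4, against 40.1% and 38.5%. The medians were 0.61 and 0.65, against 0.01 over all genes in each case. Surgery, estradiol pellet, depth and the batch of libraries cannot be told apart in this comparison, and neutrophil markers summed to 95.4 to 107 FPKM in KO vehicle and 1292 in ERKO OVX vehicle, a difference whose part was not tested. An equal sum moved the median of all genes by -0.34 and -0.26 and gave 18 higher and 9 lower with vehicle and 19 and 7 with agonists. Over all genes, that scaling gave 2144 higher and 7330 lower of 11347 with vehicle. With agonists it gave 2435 and 6731 of 11346. Egln3 stood at 3.32 and 3.03 FPKM in KO and 16.1 and 16.4 in ERKO OVX (2.05 ± 0.07 (SE, adjusted p = 2.94e-09)). Hk3, the hexokinase of myeloid cells, stood at 51.1 and 51.3 and 132 and 132 (1.35 ± 0.03 (SE, adjusted p = 9.37e-11)), and Bnip3 at 9.63 and 9.30 and 30.4 and 32.2 (1.63 ± 0.05 (SE, adjusted p = 1.02e-09)). The ERKO OVX pair counts as 1 sample, so its closeness is no measure of the spread between samples. Slc2a1 (1.21), P4ha1 (1.17), Eno1 (1.12), Ldha (1.07) and Tpi1 (1.02) were higher too. Pfkfb3 was lower, at 28.2 and 27.2 against 73.2 and 74.1 FPKM (-1.38 ± 0.03 (SE, adjusted p = 2.59e-10)), and so were Eno2 (-0.85), Ddit4 (-0.60) and Hif1a (-0.54).

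With agonists the same comparison gave 1.64 for Egln3, 1.56 for Hk3, 1.42 for Bnip3, 1.18 for Slc2a1 and -1.46 for Pfkfb3. Eno2 (-1.15), Hif1a (-0.57) and Ddit4 (-0.44) were again lower. Pgk1 was higher as deposited with vehicle (0.42) and agonists (0.31) but changed sign with quantile normalization. Likewise Slc16a1 with vehicle (0.18) and Hk2 with agonists (0.17) changed sign with an equal sum. Leaving out ERKO OVX vehicle 2 or KO vehicle 2 ended the vehicle call for Slc16a1 (adjusted p = 0.0997 and 0.112).

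Hif1a mRNA was highest in WT and lowest in ERKO OVX. It stood at 120.5 and 123 FPKM in WT vehicle and 116 and 113 in WT agonist, at 80.1 and 74.7 and 75.9 and 77.9 in KO, at 63.6 and 64.2 and 56.2 and 54.6 in Ex3a OVX, and at 52.6 and 53.1 and 51.5 and 51.5 in ERKO OVX. Among known targets, Egln3, Bnip3, Ldha and Slc2a1 were highest in ERKO OVX, whereas Hk2 was highest in WT agonist and lowest in ERKO OVX vehicle, and Pdk1 was highest in WT vehicle. The factor's activity rests largely on protein stability, which mRNA does not measure.

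Other listed genes near these pathways were counted the same way. Of 26 tested HIF targets and regulators outside the 31 genes, WT had 8 that rose and 9 that fell, KO 8 and 8, and ERKO OVX 5 and 5, while 8 rose in Ex3a OVX, with medians between -0.01 and 0.03. Against the shares of all genes given above, such as 30.8% higher and 27% lower for WT, the counts of the first 3 arms lie near the background. Nos2, the inducible nitric oxide synthase, went from 45.6 and 49.5 to 214 and 205 FPKM in WT (2.12 ± 0.04 (SE, adjusted p = 2.17e-10)). Vegfa, the vascular growth factor, fell from 35.7 and 35.4 to 15.2 and 14.5 FPKM (-1.20 ± 0.05 (SE, adjusted p = 3.34e-08)), and in KO from 12.7 and 13.5 to 4.94 and 5.48 (-1.19 ± 0.05 (SE, adjusted p = 5.35e-08)). Against WT, 8 of the 26 were higher and 13 lower in KO vehicle cells (median -0.14, where 31.5% and 28.7% of all genes were higher and lower), with Hmox1, the heme-degrading oxygenase, at 2981 and 2929 and 484 and 492 FPKM (-2.60 ± 0.02 (SE, adjusted p = 1.07e-12)). With agonists 9 were higher and 13 lower (median -0.06, against 27.2% and 27.6% of all genes). Against ERKO OVX, 2 were higher and 16 lower in Ex3a OVX vehicle (median -0.39, against 29.2% and 26% of all genes). With agonists the counts there were 4 and 19 (median -0.31, against 32.1% and 30.6%). Ankrd37 stood at 8.05 and 8.93 and 0.976 and 1.38 FPKM with vehicle (-2.12 ± 0.16 (SE, adjusted p = 3.23e-06)), and Nos2 at 265 and 259 and 69.8 and 67.5 (-1.92 ± 0.06 (SE, adjusted p = 4.55e-09)). Between ERKO OVX and KO the counts were 13 higher and 11 lower with vehicle and 11 and 11 with agonists. Over all genes, 40.9% were higher and 39.9% lower with vehicle there, and 40.1% and 38.5% with agonists. Car12, Hif3a, Stc2 and Loxl2 did not pass the filter.

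Of 16 tested genes for other glycolytic isozymes and the fate of pyruvate, WT had 2 that rose and 11 that fell, KO 2 and 7, ERKO OVX 2 and 6, and Ex3a OVX 2 and 3. Of all genes, 30.8% rose and 27% fell in WT and 25.9% and 25.3% in KO. In ERKO OVX these shares were 18.3% and 19.2%, and in Ex3a OVX 19.1% and 18.2%. Those that rose in WT were Gpd2, the mitochondrial glycerol phosphate dehydrogenase, from 15.2 and 15.3 to 36.4 and 35.4 FPKM (1.19 ± 0.03 (SE, adjusted p = 1.37e-09)), and the sugar carrier gene Slc2a6, from 69.4 and 69.5 to 139 and 143 (1.01 ± 0.03 (SE, adjusted p = 2.00e-09)). Ldhb, the other lactate dehydrogenase subunit, fell from 12.5 and 11.9 to 7.49 and 7.17 (-0.66 ± 0.06 (SE, adjusted p = 9.56e-06)). In KO against WT, 4 were higher and 8 lower with vehicle and 3 and 5 with agonists. In Ex3a OVX against ERKO OVX the counts were 6 and 5, then 5 and 3. In ERKO OVX against KO they were 9 and 4, then 10 and 5. Shares of all genes higher and lower in KO against WT were 31.5% and 28.7%, then 27.2% and 27.6%. For Ex3a OVX against ERKO OVX these shares were 29.2% and 26%, then 32.1% and 30.6%. For ERKO OVX against KO these shares were 40.9% and 39.9%, then 40.1% and 38.5%.

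Of 8 pentose phosphate pathway genes, 1 rose and 4 fell in WT, and 2 and 2 in KO. In Ex3a OVX 1 rose and 3 fell, and in ERKO OVX 4 fell. Shares of all genes are those given for the other isozymes, such as 30.8% higher and 27% lower in WT. Pgd, which makes NADPH in this pathway, stood at 469.9 and 465 FPKM in WT vehicle and 276 and 274 in KO (-0.76 ± 0.03 (SE, adjusted p = 1.23e-08)), and at 610.0 and 610.4 FPKM in ERKO OVX vehicle and 248 and 249.9 for Ex3a OVX (-1.29 ± 0.04 (SE, adjusted p = 4.20e-09)). It was lower in KO and in Ex3a OVX than in the arm each was set against. In KO against WT, 6 were lower with vehicle, and 5 were lower and 1 higher with agonists. In Ex3a OVX against ERKO OVX 6 were lower and 1 higher with vehicle and 5 were lower with agonists, while in ERKO OVX against KO 8 were higher with vehicle and 6 with agonists.

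Of 10 genes of glycogen turnover, WT had 1 that rose and 6 that fell, KO 2 and 5, ERKO OVX 1 and 7, and Ex3a OVX 4 and 1. Gbe1, the branching enzyme, rose from 13.1 and 13.0 to 20.1 and 19.8 FPKM in WT (0.58 ± 0.04 (SE, adjusted p = 4.93e-07)), while Gyg, the primer of glycogen, and Pygl, a phosphorylase, changed by -0.53 and -0.51. With vehicle Gbe1 stood at 5.87 and 5.53 in KO, a difference from WT of -1.07 ± 0.04 (SE, adjusted p = 1.01e-08). The counts were 3 higher and 6 lower in KO against WT with vehicle and 3 and 5 with agonists. They were 1 and 6, then 4 and 6, in Ex3a OVX against ERKO OVX, and 6 and 4, then 6 and 3, in ERKO OVX against KO. Shares of all genes for these comparisons are those given for the other isozymes, such as 40.9% higher and 39.9% lower in ERKO OVX against KO with vehicle.

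Of the 31 genes, 8 have a near-identical copy in the annotation (at least 95% identity over at least 300 bases), so their values are uncertain where counting could split reads. They are Gapdh with 75 copies, Bnip3 with 5, Pgk1 and Eno1 with 3 each, and Gpi1, Pfkp, Pgam1 and Pkm with 1 each. For Eno1, the copy Eno1b has its own entry, at 67.6 to 187 FPKM. Of the other copies with an entry, Pitrm1 (12.1 to 17.1 FPKM) overlaps Pfkp, and Gm12070, a copy of Gapdh, was at 0.0271 to 4.65 FPKM.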

How the data were processed

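RNA was sequenced in paired ends after TruSeq preparation, per the labels' protocols. The authors deposited FPKM values per gene symbol. Per the submitters' processing notes cutadapt, FastQC, STAR, HTSeq and DESeq2 were used with mm10; the program that gave the FPKM and all versions are not given in the sources used here. Of low deposited FPKM values, 55.7% to 60.7% lay within 0.1 of a whole read, so reads were not recovered and no count test was run.

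Of the deposited entries, 1243 of small RNAs and 5724 at 0 in every library were left out, and 5 zeros in 4 other genes were taken as missing. The values were analysed as log2(FPKM + 1) in limma 3.58.1 (R 4.3.3), with trend and robust moderation, 1 coefficient for each of the 8 groups, 12 samples (each ovariectomized pair averaged) and 4 residual degrees of freedom. Genes with at least 1 FPKM in at least 2 libraries were tested (11347), with Benjamini-Hochberg adjustment over all of them at 0.05. On simulated data for the WT comparison (11344 genes) the fit called 28 of 50 genes changed by 0.25 on the log2 scale, 46 of 50 at 0.5, all 50 at 1 and 7 of 11144 unchanged genes. With 2 libraries a group, their number and depth limit what can be seen.

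Members and lists were chosen with earlier results of these data known. Per comparison, up to 8 members past the threshold were named by size of change, with those of the opposite direction; other called members are given by change alone, and companion lists by counts and up to 4 members (1 such member is not reported here). Lists of other HIF genes, other isozymes, pentose phosphate and glycogen genes, and markers of dendritic, macrophage, neutrophil, mast, erythroid, lymphoid and cycling cells were used. Alternatives were other pseudocounts, filters, scalings, libraries entered singly, a replicate block, leaving out each library, and, chosen after seeing the data, the unoperated libraries alone. Promoters and motifs were read from RefSeq (GRCm38.p6) and gene positions from GENCODE M21.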

Additional observations from a re-analysis of the deposited data

Results flagged for a closer look

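The members below changed differently with agonists in 2 arms, by a direct test of the difference in response (limma, adjusted p under 0.05). Differences are on the log2(FPKM + 1) scale.

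KO against WT, the Egln3 response differed by 0.432 (adjusted p = 0.0151), since Egln3 rose in KO and did not pass in WT. The Pfkfb3 response differed by -0.199 (adjusted p = 0.0157), since it rose by more in WT.

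In Ex3a OVX the response was higher than in ERKO OVX for the upper glycolysis genes Hk1 (0.432), Gpi1 (0.410), Tpi1 (0.439), Hk3 (0.237), Pfkp (0.218) and Aldoa (0.205), for the lower glycolysis genes Gapdh (0.390), Pgk1 (0.356), Pgam1 (0.257), Eno1 (0.329) and Pkm (0.401), for Slc16a3 (0.334) and Ldha (0.255), and for the hypoxia genes Bnip3 (0.302) and Ddit4 (0.227). Of these, Slc16a3 fell in both arms, by less in Ex3a OVX. The response was lower in Ex3a OVX for Hk2 (-0.385) and Slc2a1 (-0.147). Genes with a higher response were 8 with an equal sum (734 of all 11347 genes) and 4 with quantile normalization (1152 of all 11347). With the latter, Hk3, Pfkp, Aldoa, Gapdh, Pgam1, Eno1, Pkm, Slc16a3, Ldha, Bnip3 and Ddit4 did not pass (adjusted p = 0.0564 to 0.329).

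In ERKO OVX the response was higher than in KO for Slc16a1 (0.469), Pfkm (0.459), Hk3 (0.213) and Hk2 (0.194), and lower for Egln3 (-0.407), Gapdh (-0.202), Tpi1 (-0.178), Gpi1 (-0.170), Hk1 (-0.161) and Pgam1 (-0.154). No group here holds more than 2 libraries, so no single library could be tested as standing apart from its group.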

How the results depend on the processing

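Over the 31 genes, calls kept their direction and side of the threshold in 4086 of 4160 leave-one-out tests. The other 74 lost the threshold without changing sign. Many of these tests left out a library outside the comparison, so the total says little about how firm the calls are. Of 260 calls, 230 were kept with an equal sum and 225 with quantile normalization. Across the comparisons in the order WT, KO, ERKO OVX and Ex3a OVX responses, leaving out each library gave 3 to 3, 4 to 5, 2 to 3 and 4 to 5 genes higher and 18 to 20, 15 to 16, 15 to 16 and 5 to 6 lower. For KO against WT it gave 2 to 4 higher and 22 to 23 lower with vehicle and 2 to 3 and 21 to 22 with agonists, for Ex3a OVX against ERKO OVX 4 to 4 and 25 to 26, then 3 to 4 and 23 to 25, and for ERKO OVX against KO 21 to 22 and 4 to 4, then 23 to 24 and 4 to 4. For differences in response it gave 0 to 1 and 0 to 1 (KO and WT), 13 to 15 and 1 to 3 (Ex3a OVX and ERKO OVX), and 3 to 5 and 4 to 7 (ERKO OVX and KO).

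Counts moved by over 1.5 times as follows. In the Ex3a OVX response, genes higher were 1 with no filter, 1 with an equal sum, 2 with quantile normalization, and 7 with 16 libraries entered one by one, with or without the replicate block; genes lower were 10 with an equal sum. In Ex3a OVX against ERKO OVX, genes higher were 2 with quantile normalization in vehicle, and 1 with an equal sum and 1 with quantile normalization in agonists. In ERKO OVX against KO, genes lower with an equal sum were 9 in vehicle and 7 in agonists. For the KO and WT responses, genes higher were 0 with no filter, 7 with an equal sum, 4 with quantile normalization and 2 with libraries one by one or with the replicate block, and genes lower were 2 with 5 FPKM added, 0 with no filter, 0 with an equal sum and 3 with libraries one by one or with the replicate block. For the Ex3a OVX and ERKO OVX responses, genes higher were 8 with an equal sum and 4 with quantile normalization, and genes lower were 1 with no filter, 6 with an equal sum and 4 with libraries one by one or with the replicate block. For the ERKO OVX and KO responses, genes lower were 3 with no filter, 1 with an equal sum and 1 with quantile normalization. Counts over all genes moved with an equal sum too, as given above. The cause was not tested.

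Values that changed sign, on the log2 scale, were in Ex3a OVX against ERKO OVX with agonists Ddit4 (-0.009), Hk1 (-0.058) and Pfkfb3 (-0.062) with an equal sum and Hk1 (-0.025) and Pfkfb3 (-0.011) with quantile normalization. In ERKO OVX against KO they were Pgk1 with quantile normalization (-0.038 vehicle, -0.014 agonists), and Slc16a1 in vehicle (-0.137) and Hk2 in agonists (-0.125) with an equal sum, of which Hk2 passed in the new direction (adjusted p = 0.0214). In the ERKO OVX and KO responses they were Gapdh (0.013) and Tpi1 (0.064) with quantile normalization. Equal replicate numbers did not pair the libraries, since deviations of same-numbered libraries correlated between -0.074 and 0.056. With the unoperated libraries alone, the WT and KO counts were as reported (20 and 16 lower, 3 and 5 higher). With fewer than 3 libraries a group, small changes were often not detectable.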
